A study of Mus musculus with 10 samples.

Results

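The widest peaks in a map of RNA bound by YTHDC1 in mouse embryonic stem cells are described here: the 249 peaks of 7 kb and more among 30992. They were chosen by their width alone (end minus start of at least 7000 bp), so their width is given as a description and supports no test. The series held 10 samples. In 1 sample YTHDC1 carrying a Halo tag (genotype Halo-Ythdc1 knockin) was pulled down from embryonic stem cells and its RNA sequenced as RNA immunoprecipitation (RIP), and 1 sample was the matching input, both from total RNA. The other 8 samples were 2 m6A precipitates and 2 inputs from Mettl3-KO cells and the same from Mettl3-WT cells, all from polyA RNA. The cell type label of the Mettl3-KO samples carries the addition (WT), and their titles were followed. The description of 1 Mettl3-KO precipitate names the wild-type m6A list, so the samples behind each m6A list are not settled. The lines were male, grown without feeders in serum with LIF, and no nuclease or fragmentation step was used during the pull-down, per the labels' protocols. Titles mark the Mettl3-WT samples rep1 or rep2 and the Mettl3-KO samples KO1 or KO. What KO1 stands for is not stated, and the labels name no clone and no separate cultures within a group. Each of the authors' 3 peak lists gives only the chromosome, start and end of a peak, so read depth, peak height, strand and the spread between samples are unknown. All intervals below are exact Clopper-Pearson 95% intervals for counts of peaks and cover counting error only. Peaks are not replicates, and no test was run between width classes.

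YTHDC1 is the nuclear member of the YTH protein family, which binds N6-methyladenosine (m6A), a mark that METTL3 writes on RNA. In mouse embryonic stem cells YTHDC1 is known to bind RNA of retrotransposons, among them endogenous retroviruses and LINE1 elements, and to take part in their silencing with the histone methyltransferase SETDB1. Such elements lie in many near-identical copies in the genome, several kilobases long when complete, and short reads from one copy can often be placed on another. No annotation of repeats was used here, so no peak is assigned to an element. Of 10 stem cell marker genes, among them Pou5f1 and Nanog, 7 held a YTHDC1 RIP peak, as did 0 of 7 fibroblast, 2 of 4 neuroectoderm, 0 of 4 endoderm and 2 of 4 trophoblast markers. Of all protein-coding genes, 42.4% overlapped a RIP peak.

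At least 11 of the widest peaks carry sequence that another of them holds at a different place in the genome. Peaks carry no sequence in the files, so the RefSeq windows around gene starts (300 bases, 250 before the start and 50 after it, build GRCm38.p6, whose coordinates are those of mm10) were searched for windows that lie wholly inside a peak. There were 17 such windows, in 16 of the 249 peaks, all at genes with provisional names. The first set shown comes from peaks on chromosomes 2, 4 and 6 with widths of 7554, 7556 and 7555 bp. The windows were identical over the 298 or 299 bases that each pair had in common, and the first 100 bases that all 3 share are printed because they show the copies base for base.

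Gm46754, chr2:94806013-94806112, plus strand: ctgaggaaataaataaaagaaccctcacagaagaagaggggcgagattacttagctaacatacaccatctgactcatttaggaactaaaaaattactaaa
Gm46854, chr4:51876399-51876498, plus strand: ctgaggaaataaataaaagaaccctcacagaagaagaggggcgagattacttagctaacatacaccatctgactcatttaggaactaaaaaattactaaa
Gm40405, chr6:132965364-132965463, minus strand: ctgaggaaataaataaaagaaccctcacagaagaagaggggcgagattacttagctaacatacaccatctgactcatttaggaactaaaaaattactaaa

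The stretch began 4519, 4520 and 4519 bases from the upstream edge of its peak in Gm46754, Gm46854 and Gm40405. The upstream edges of these 3 peaks thus differed by at most 1 base when laid on the shared sequence, and so did the downstream edges. A second set came from peaks of exactly 7587 bp on chromosomes 13 and 16. Their windows, at Gm35279 and Gm41501, were 99.3% identical over 297 bases, with 2 mismatches. The first 100 bases in common are printed, and the capital marks the base at which the copies differ in this stretch.

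Gm35279, chr13:98993988-98994087, plus strand: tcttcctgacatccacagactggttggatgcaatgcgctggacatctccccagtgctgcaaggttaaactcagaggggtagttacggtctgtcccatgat
Gm41501, chr16:93705170-93705269, plus strand: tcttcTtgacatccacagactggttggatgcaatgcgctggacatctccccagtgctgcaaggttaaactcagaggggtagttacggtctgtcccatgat

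Both stretches began 7016 bases from the left edge of the peak. The left edge of another peak of 7587 bp, on chromosome 1, falls inside the window of Gm33887 and is printed to show the base at which a peak begins. Capitals mark the bases inside the peak.

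Gm33887, chr1:182257781-182257840, plus strand: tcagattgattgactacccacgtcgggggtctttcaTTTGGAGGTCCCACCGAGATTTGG

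The windows fell into 4 groups by shared sequence. Of the 17 windows, 12 shared at least 1 run of 31 bases with a window in another of the widest peaks, and these 12 lay in 11 peaks on 8 chromosomes. The largest group joined Gm40814, Gm46911, Gm52236, Gm52512 and Gm52796, in peaks of 7559 to 7587 bp on chromosomes 2, 5, 11 and 16. The peak of 7587 bp on chromosome 16 held a window of this group, Gm52236, and that of Gm41501 from the pair above, so the peaks fell into 3 linked sets. Gm52236 lies on the minus strand and Gm41501 on the plus strand. Upstream, taken along the gene, is thus the right edge of this peak for Gm52236 and its left edge for Gm41501. The smallest identity among the 15 pairs of windows was 97.7%, compared without gaps, and the median was 100%. Laid on the shared sequence, the upstream edges of the paired peaks lay within 2 bases of each other in 15 of 15 pairs. The downstream edges lay within 1 base in 10 pairs and exactly 27 bases apart in the other 5, each a peak of 7559 bp against one of 7586 to 7588 bp. The other 5 windows shared no such run with another of the widest peaks. One of them was that of LOC108167564 on chromosome 8, in the only peak with a window that was narrower than 7500 bp (7071 bp).

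**Figure D1:**
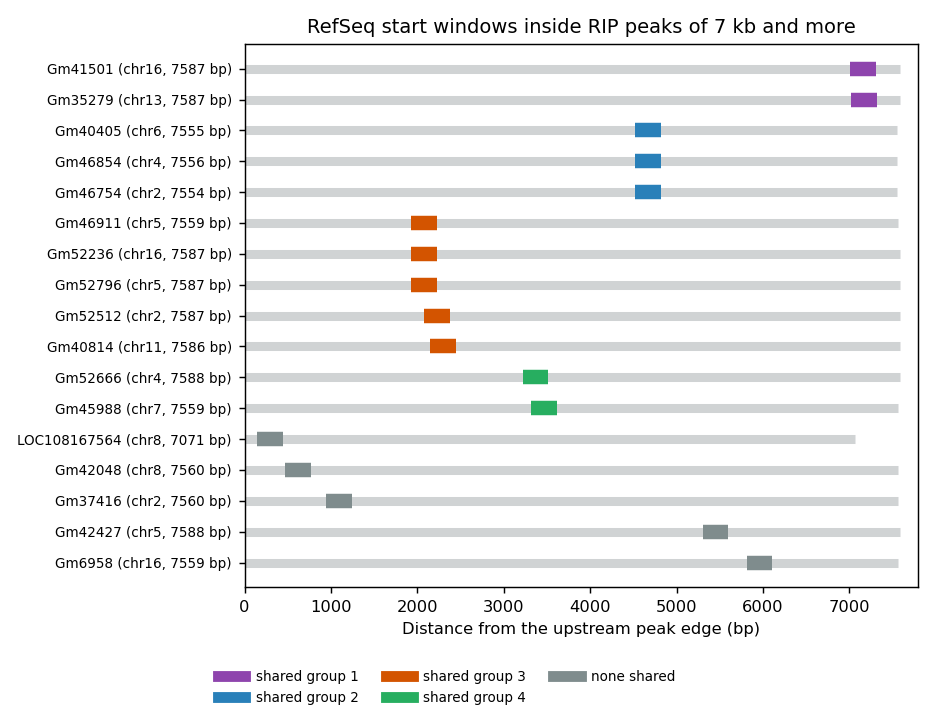
The 17 RefSeq start windows (coloured blocks, 300 bases) inside RIP peaks of 7 kb and more (grey bars), drawn by distance in bp from the peak edge upstream of the gene start, along the strand of the gene. Each window has its own bar, so the peak that holds both Gm52236 and Gm41501 is drawn again for each, from opposite edges. Windows of one shared group (colours) overlap in position within their peaks, such as those of Gm40405, Gm46854 and Gm46754, each 4518 or 4519 bp from the edge.

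Related sequence also lay in narrower RIP peaks, and in 5 of them the upstream edge matched that of the widest ones. Windows in 5 narrower peaks of 4093 to 5932 bp (Gm40378, Gm40453, Gm41844, Gm45978 and Gm52787) shared a run of 31 bases with a window of the widest peaks. Their upstream edges lay within 2 bases of those of the widest peaks in all 13 pairs, and their downstream edges lay 1628 to 3494 bases short of them. Edges were compared only where a window lay wholly inside a peak. The related windows of Gm43549, Gm52719, A630077J23Rik and Wiz touched a narrower RIP peak without lying wholly inside it, and were left out. The window of Gm52787, in a peak of 5695 bp, was identical over all 300 bases to that of Gm52796, in a peak of 7587 bp. The window of Gm40453, in the peak of 4093 bp, was 81.9% and 83.0% identical to those of Gm52236 and Gm52796 over 94 bases. These windows were compared without gaps, so an insertion, a deletion or an end of the shared stretch would count as mismatches. These pairs gave the edge 3494 bases short.

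A minority of the widest peaks gathered at a few widths. The median was 7407 bp (quartiles 7157 and 7586 bp), the smallest 7004 bp and the largest 11710 bp. The 4 peaks of 10000 bp or more lay at chr1:137338860-137350569, chr10:106390638-106402029, chr15:57413510-57424367 (in Slc22a22) and chr8:52303562-52313671, with widths of 11710, 11392, 10858 and 10110 bp. Between 7000 and 7250 bp lay 81 peaks, between 7250 and 7500 bp 63, between 7500 and 7750 bp 72 and between 7750 and 8000 bp 11. Only 22 were 8000 bp or wider. The widths held most often were 7555 and 7587 bp with 8 peaks each, 7559 bp with 7, 7588 bp with 5 and 7560 bp with 4. Extended over the neighbouring widths that were also held, these values made 3 ranges, of 7554 to 7557 bp (13 peaks on 11 chromosomes), 7559 to 7560 bp (11 peaks on 9 chromosomes) and 7586 to 7588 bp (14 peaks on 10 chromosomes). The 3 ranges were chosen after the widths were seen. They held 38 of the 249 peaks (15.3%) and 15 of the 16 peaks with a start window.

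**Figure D2:**
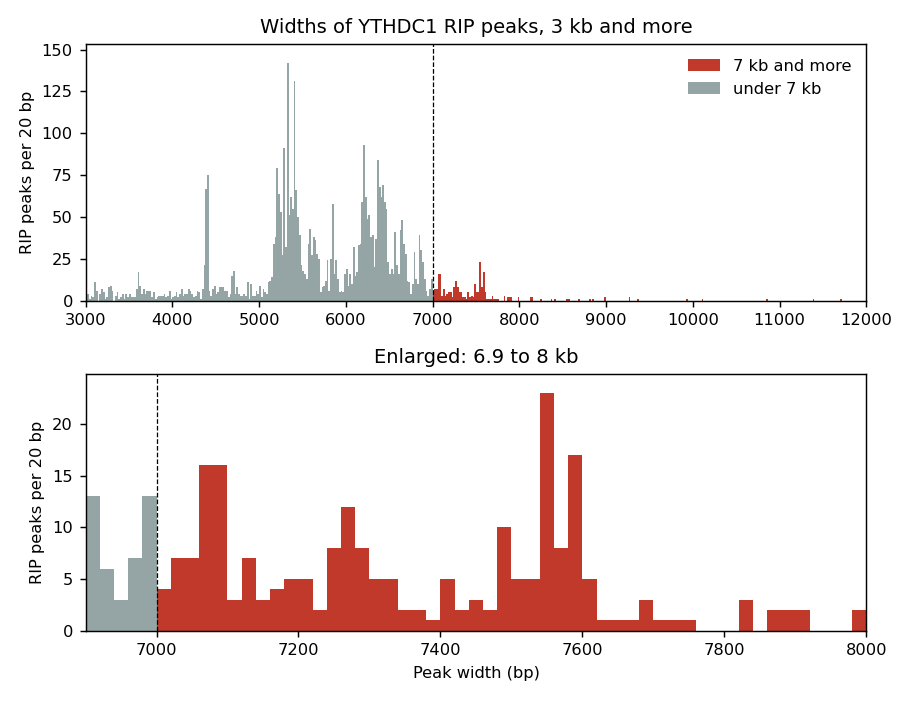
Number of YTHDC1 RIP peaks per 20 bp of width, from 3 to 12 kb (top) and from 6.9 to 8 kb (bottom), with peaks of 7 kb and more in red, narrower ones in grey and a dashed line at 7000 bp. Below 7 kb the list has its own narrow columns, and among the widest peaks the highest columns stand just above 7540 and 7580 bp.

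Outside these ranges the widths were mostly single. A width held by no other RIP peak was seen for 161 of the widest peaks (64.7%, 58.4 to 70.6%), against 18.2% of peaks of 6 to 7 kb, 17.9% of those of 5 to 6 kb, 44.7% of those of 4 to 5 kb and 4.96% of all RIP peaks. A class with more peaks per bp of width has fewer single widths by number alone, and the part of that in these shares was not tested. Within the 3 ranges 36 of 38 peaks shared their width, and among the other 211 widest peaks 52. In the whole list the most frequent width above 3 kb was 5326 bp, with 88 peaks. The widest peaks were 0.803% of the RIP peaks and 6.21% of the bases they cover (1.87 Mb of 30.1 Mb).

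Most of the widest peaks lay outside genes. Of the 249, 91 had their midpoint in the span of a protein-coding or long non-coding RNA gene (36.5%, 30.6 to 42.9%), against 73.9% of all RIP peaks. The share was 26.5% (24.3 to 28.8%) for peaks of 6 to 7 kb, 28.3% for those of 5 to 6 kb and for those of 4 to 5 kb, 31% for those of 1 to 4 kb and 82.4% for those under 1 kb. In the 3 width ranges, in the order of their widths, 2 of 13 (1.92 to 45.4%), 8 of 11 (39.0 to 94.0%) and 9 of 14 (35.1 to 87.2%) peaks lay in gene spans, with intervals that overlap. The other 211 widest peaks had 72 in gene spans (34.1%, 27.8 to 40.9%). Of the 3 ranges, the last 2 held all 9 peaks whose hosts were short gene models (2.7 to 10.7 kb), described below. No gene model of any kind touched 144 of the 249, a count not made for other RIP peaks. The 158 peaks outside gene spans lay a median of 54.7 kb from the nearest gene. Outside genes, this median was 62.9 kb for RIP peaks of 4 to 7 kb and 8.68 kb for those under 1 kb. More than 100 kb from a gene lay 55 of the 158, which was also not counted for other RIP peaks.

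**Figure D3:**
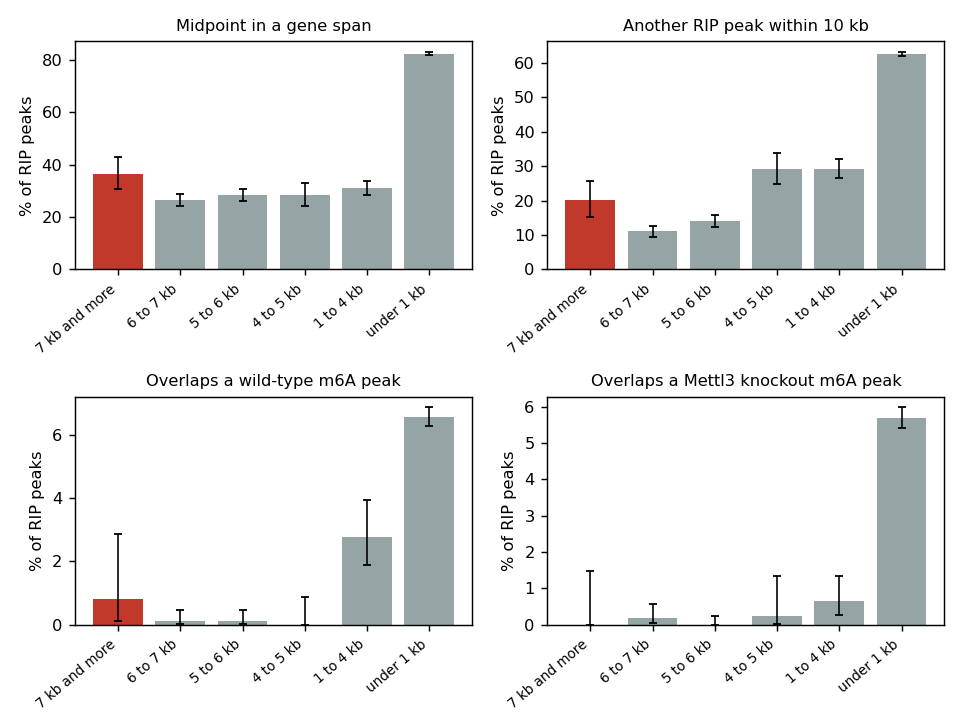
Share of YTHDC1 RIP peaks, by width class, with the midpoint in a gene span, with another RIP peak within 10 kb, and overlapping a wild-type or a Mettl3 knockout m6A peak. Bars are percentages, lines are exact 95% intervals, and the peaks of 7 kb and more (red) stand at 36.5%, 20.1%, 0.803% and 0%.

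The hosts were mostly long coding genes, with a small group of short gene models. The 91 peaks in genes had 90 distinct hosts, 75 of them protein-coding and 15 long non-coding, and 31 with provisional names. In 9 cases the host span was under 11 kb (2.7 to 10.7 kb), a limit set after the spans were seen, and these 9 peaks were 7559 to 7588 bp wide. Of these hosts 3 were longer than their peak. The next longer host, Gm41720 at 11.9 kb, held a peak of 7165 bp. Their hosts, among them Gm52666, Gm45988 and Gm33887, are protein-coding models in the gene table, and no role is known for them here. The other 82 peaks in genes were 32.9% of the 249. Of the 75 protein-coding hosts, 49 spanned more than 100 kb, against 11.1% of all protein-coding genes, and their median span was 214 kb against 17.1 kb. Long hosts were also seen for narrower peaks. Over all peaks in genes of either type, the median host span was 206 kb for the widest peaks. It was 257 kb for peaks of 6 to 7 kb, 252 kb for those of 5 to 6 kb and 138 kb for those of 4 to 5 kb. For all RIP peaks in genes it was 37.0 kb. A peak falls more often in a longer span by length alone, and the part of length in these counts was not tested. Within genes, 74 of the 91 peaks lay more than 5 kb from both ends of the span. No such count was made for other RIP peaks, and most of a long span lies that far from its ends.

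Some hosts are large neuronal and cell surface genes. Ptprd, a receptor tyrosine phosphatase gene spanning 2270.5 kb, held a peak of 7396 bp. Gpc6 and Gpc5, which encode the heparan sulphate proteoglycans glypican-6 and glypican-5, held peaks of 7829 and 7087 bp. Nrg3, which encodes a ligand of the receptor ERBB4, held one of 7296 bp, and its nearest other RIP peak lay 739817 bp away. Nalcn, a sodium leak channel gene, held one of 7271 bp, Itpr1, the gene of an inositol trisphosphate receptor of the endoplasmic reticulum, one of 7320 bp, and Kcnab1, the gene of a potassium channel subunit, one of 8135 bp. The widest peak in any gene, of 10858 bp, lay in Slc22a22, a member of a family of organic ion transporters. Of the 25 widest peaks, the others in genes were of 8543 bp in the long non-coding RNA gene Gm33458, 8412 bp in the long non-coding RNA gene 4930455D15Rik and 8242 bp in the protein-coding model Gm38510.

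Transporter, signalling and developmental genes were also among the hosts. Abca1, which exports cholesterol from cells, held a peak of 7087 bp, and Abcb1a, a drug efflux pump gene, one of 7474 bp. Prkcb and Prkg1, which encode protein kinase C beta and a cGMP-dependent kinase, held 7570 and 7423 bp. Among transcription factor genes, Sox6 held 7278 bp, Mecom 7494 bp and Tcf12 7214 bp. Col4a5, a basement membrane collagen gene, and F8, the gene of coagulation factor VIII, both X-linked, held 7577 and 7124 bp. Morc1, known in mice for silencing transposons in the male germline, held 7499 bp. Apart from Slc22a22, Kcnab1 and the other hosts of the 25 widest peaks, these hosts were picked for what their products are known to do, after their values were seen.

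No gene of the listed groups was a host, and few or none would be at the share over all genes, of which 90 of 34631 (0.26%) were hosts. Hosts included 0 of 16 nuclear and imprinted long non-coding RNA genes, of which 13 overlapped some RIP peak, against 10.8% of all long non-coding RNA genes. They included 0 of 21 genes of retrotransposon silencing, of which 19 overlapped a RIP peak, and 0 of 403 genes named Zfp, of which 237 did. The silencing list does not hold Morc1, the host named above. Among the clustered receptor genes, 0 of 1110 named Olfr and 0 of 355 named Vmn were hosts, and 4 and 11 of them held a RIP peak. For the silencing, Zfp, Olfr and Vmn lists, the share to set beside these counts is 42.4% of all protein-coding genes. A single host held more than 1 widest peak: Gm40862 on chromosome 12, a protein-coding model of 238.4 kb, with peaks of 7668 and 7650 bp.

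By chromosome, the X carried the most. It held 25 of the 249 widest peaks (10.0%, 6.6 to 14.5%), against 4.05% of all RIP peaks. The share on X was 8.99 to 10.8% in each width class between 1 and 7 kb and 2.96% under 1 kb. Of the 38 peaks in the 3 width ranges 1 lay on X, and of the other 211 widest peaks 24. Next came chromosome 3 with 18 peaks (7.23%, 4.34 to 11.2%), against 5.03% of narrower RIP peaks and 8.35% of those of 6 to 7 kb. Chromosomes 4 and 5 held 17 each (6.83%), near their 6.75% and 6.38% of narrower RIP peaks. The fewest lay on chromosome 19, with 1 (0.402%, 0.0102 to 2.22%), against 2.65% of narrower RIP peaks and 1.03% of those of 6 to 7 kb. Chromosome Y held 2 (0.803%, 0.0974 to 2.87%), against 0.485% of narrower RIP peaks and 2.31% of those of 6 to 7 kb. Chromosome 17 held 5 (2.01%, 0.655 to 4.62%), against 4.36% of narrower RIP peaks and 2.95% of those of 6 to 7 kb. Chromosome 11 held 10 (4.02%, 1.94 to 7.26%), against 7.17% of narrower RIP peaks and 2.18% of those of 6 to 7 kb.

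**Figure D4:**
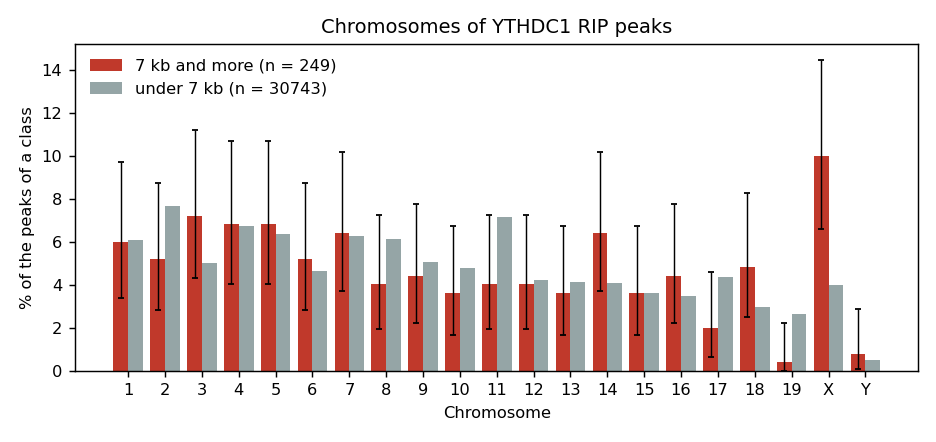
Percentage of the RIP peaks of 7 kb and more (red, with exact 95% intervals, n = 249) and of the narrower RIP peaks (grey, n = 30743) on each chromosome. The red bar of X, at 10.0%, is the tallest, and that of chromosome 19, at 0.402%, the lowest.

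Most of the widest peaks had no other RIP peak close by. The nearest other RIP peak lay a median of 56.7 kb away, against 73.5 kb for peaks of 6 to 7 kb, 61.0 kb for those of 5 to 6 kb, 47.7 kb for those of 4 to 5 kb and 7.45 kb for all RIP peaks. Within 10 kb another RIP peak was found for 50 of the 249 (20.1%, 15.3 to 25.6%). The share was 11% (9.47 to 12.6%) for peaks of 6 to 7 kb and 14.1% for those of 5 to 6 kb. It was 29.2% for those of 4 to 5 kb and for those of 1 to 4 kb, and 55.5% over all RIP peaks. No other RIP peak lay within 100 kb of 93 of the 249 (37.3%), against 9.35% of all RIP peaks. Peaks of 4 to 7 kb were about as isolated. The 60th percentile of the gap was 99738 bp for those of 6 to 7 kb. For those of 4 to 6 kb the 67th percentile was 100441 bp. In gene spans the share with a neighbour within 10 kb was 24.2% (15.8 to 34.3%), and outside them 17.7% (12.1 to 24.6%), with intervals that overlap.

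**Figure D5:**
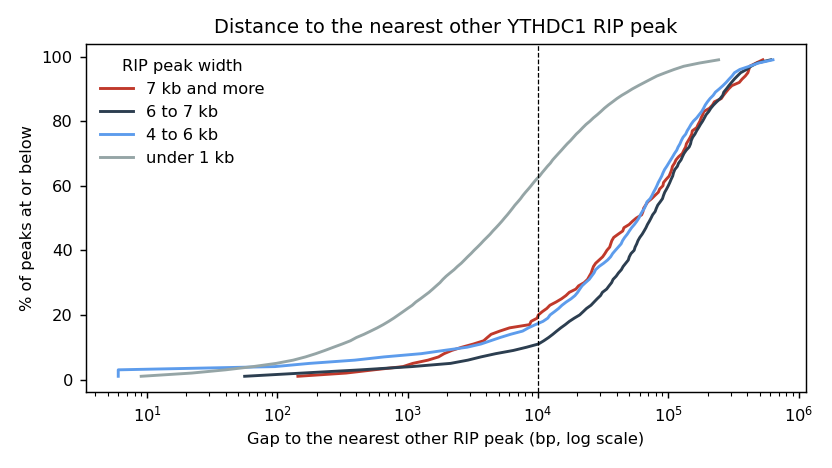
Cumulative percentage of RIP peaks against the gap in bp to the nearest other RIP peak (log scale), for 4 width groups, with a dashed line at 10 kb. The curve of the peaks of 7 kb and more runs beside those of the peaks of 4 to 7 kb, with a median of 56.7 kb, and to the right of that of peaks under 1 kb.

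For the 50 peaks with a neighbour within 10 kb, the width of the nearest one was read. It measured under 1 kb for 32, 11 of them at exactly 200 bp, 1 to 4 kb for 7 and 4 kb or more for 11. The nearest was 1 kb or wider for 36% of the 50 (22.9 to 50.8%), against 46.8% of the peaks of 6 to 7 kb with such a neighbour and 5.04% of all RIP peaks with one. It was 4 kb or wider for 22% (11.5 to 36%), against 37.4% and 3.24%. In Snx6, the gene of a sorting nexin of endosomal trafficking, a peak of 7588 bp had 4 RIP peaks within 10 kb, the largest number found, the nearest of 135 bp at a distance of 699 bp. In Abcb1a the nearest RIP peak was 86 bp wide and 129 bp away. A gap of at most 1 kb was seen for 13 of the widest peaks (5.22%), against 3.79% of those of 6 to 7 kb and 18.8% of those of 4 to 5 kb. The smallest, of 1 bp, separated a peak of 7293 bp on chromosome 9 (109303605 to 109310897) from one of 3578 bp.

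m6A peaks on the widest RIP peaks were rare. In the Mettl3 knockout list 0 of 249 overlapped an m6A peak, which allows a share of up to 1.2% by 3 counts (1.47% by the exact interval), against 4.83% of all RIP peaks. Narrower classes were about as empty, with 3 of 1557 peaks of 6 to 7 kb (0.193%). The counts were 0 of 1609 for peaks of 5 to 6 kb and 1 of 414 for those of 4 to 5 kb (0.242%). In the wild-type list 2 of 249 overlapped one by at least 1 bp (0.803%, 0.0974 to 2.87%), against 5.64% of all RIP peaks. A wide peak meets more m6A peaks by its length alone, so the number per Mb covered was set beside the share. It was 1.6 wild-type m6A peaks per Mb for the widest peaks, 0.2 for those of 6 to 7 kb, 0.457 for those of 5 to 6 kb, 0 for those of 4 to 5 kb, 24.1 for those of 1 to 4 kb, 311 for those under 1 kb and 59.7 over all RIP peaks. The value for the widest peaks rests on 3 m6A peaks.

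Of these 3, 2 lay in one peak of 7402 bp in A630034I12Rik, a long non-coding RNA gene on chromosome 4 (11176470 to 11183871). They were 250 and 350 bp wide (11177851 to 11178100 and 11178201 to 11178550) and began 1381 and 1731 bp from the left edge. The third, of 250 bp (chromosome 1, 191938551 to 191938800), lay in a peak of 7587 bp outside gene spans (191934310 to 191941896), 4241 bp from its left edge. It was the only one of the 14 peaks of 7586 to 7588 bp with an m6A peak. The nearest wild-type m6A peak lay a median of 381 kb from the widest peaks and 484 kb from those of 6 to 7 kb, against 34.1 kb for all RIP peaks. For the knockout list these medians were 526, 780 and 73.5 kb. The RIP samples were total RNA and the m6A samples polyA RNA, and the sources used here do not say how reads that can be placed at several copies were treated. The part of both in the m6A counts was not tested.

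Elsewhere in the hosts m6A peaks and narrower RIP peaks were found. Of the 75 protein-coding hosts, 17 held a wild-type m6A peak (22.7%), 7 a knockout m6A peak (9.33%) and 42 a narrower RIP peak (56.0%). Among all protein-coding genes the shares were 30.6%, 18.6% and 42.3%. Of the 49 hosts spanning more than 100 kb, 26.5% (14.9 to 41.1%), 8.16% (2.27 to 19.6%) and 67.3% (52.5 to 80.1%) held one, against 35.7%, 16.3% and 67.6% of all protein-coding genes of that length. Afdn, which encodes the cell junction protein afadin, had 5 wild-type and 3 knockout m6A peaks and 3 narrower RIP peaks beside its peak of 7059 bp. Lrba, a gene of vesicle trafficking and immune regulation, had 3 wild-type and 1 knockout m6A peaks and 6 narrower RIP peaks beside its peak of 7093 bp.

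At the width limit the peaks nearest to it on both sides were as follows. The 3 just inside measured 7004 bp (chromosome 18, in no gene span), 7008 bp in Med12l, a relative of a Mediator subunit gene, and 7015 bp in Mapre2, which encodes a microtubule end-binding protein. The 3 just outside measured 6999, 6998 and 6996 bp, in no gene span, 2 of them on X. None of these 6 overlapped a wild-type m6A peak.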

How the data were processed

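RNA bound by Halo-tagged YTHDC1 and m6A-precipitated RNA were profiled in mouse embryonic stem cells. The authors deposited 3 lists of 3 columns each (chromosome, start, end), so the unit is position in bp, and no score or count goes with a peak. Coordinates are mm10, and MACS2 2.1.2, SAMtools 1.9, STAR 2.7, HISAT2 2.2.0, Trim Galore 0.6.4 and bcl2fastq are named, all per the submitters' processing notes. Which step each tool did, the peak threshold and any pooling of samples were not given in the sources used here. Titles put the samples in groups.

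Genes were the 34631 protein-coding and long non-coding models of RefSeq GRCm38.p6. Where spans overlapped, a peak's midpoint was assigned to a protein-coding gene first and then to the shortest. Overlap meant at least 1 bp. Start windows came from the RefSeq promoter table (32851 windows), were compared on both strands by shared runs of 31 bases and then without gaps, and 1 window overlapping another of its gene was dropped. Python 3.11.15, pandas 2.3.3 and scipy 1.17.1 were used, and interval functions were tested on simulated data. The members, lists, classes and alternatives were chosen with earlier results of these data known, and sequence features were limited to start windows because no genome was used here. Named genes were hosts of the 25 widest peaks, of peaks on m6A peaks, of several widest peaks, of the 3 peaks on both sides of the limit and of the gene lists. Other hosts and the genes of start windows were named after their values were seen.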

Additional observations from a re-analysis of the deposited data

How the results depend on the processing

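Every share is a count of peaks in 1 list, with no replicate behind it, and no read depth is known. No paired analysis was possible because the lists carry no value per sample, and for the same reason no sample could be left out in turn. With the minimum at 6500, 7500, 8000 and 10000 bp there were 753, 105, 22 and 4 peaks. The share in gene spans was then 30.4% at 6500 bp, 22.7% at 8000 bp and 25% at 10000 bp, and it was 30.5% with protein-coding genes only. The share on X was 0% among the 4 peaks of at least 10000 bp. The share overlapping a wild-type m6A peak was 0% from 8000 bp, from 10000 bp and with m6A peaks above the median width of their list (400 bp), so all 3 m6A peaks on the widest peaks are at or below that median. A neighbour was found for 15.3% within 5 kb, 28.5% within 20 kb and 48.2% within 50 kb, and one of at least 4000 bp within 10 kb for 4.82%. The other 23 of 39 alternatives moved a count by less than 1.5 times or left a share inside its 95% interval. Start windows covered 16 of 249 peaks, 15 of them in 3 narrow width ranges, so the shared sequence is shown for these peaks alone.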

Other observations

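The sequence of the widest peaks also lay at places with no RIP peak. Outside the widest peaks, 13 RefSeq start windows shared a run of 31 bases with one of their windows. Of these, 9 touched a narrower RIP peak and 4 touched none. Of all 32851 windows, 5.47% touched a RIP peak. The window of LOC115486431 on chromosome 4 (39387630 to 39387929) was identical over 300 bases to that of Gm46754, in a peak of 7554 bp, and touched no RIP peak. That of Gm46950 on chromosome 6 differed from Gm46754 at 1 of 298 bases and touched none either.

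The window of LOC108167564, in a peak of 7071 bp, shared sequence with windows at other RIP peaks. It was 96.3% identical over 296 bases to that of A630077J23Rik, which touched a peak of 4292 bp. It also shared a run of 31 bases, in the opposite orientation, with the window of Wiz, the gene of a zinc finger protein, which touched a RIP peak of 6317 bp, at 65.4% identity over 104 bases. The window of Gm34581, in no RIP peak, was 68.6% identical to that of LOC108167564 over 159 bases. All were compared without gaps, so an insertion, a deletion or an end of the shared stretch would count as mismatches.

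The closest pair of widest peaks lay 8607 bp apart on the X chromosome, with widths of 9277 and 7091 bp. The median distance from a widest peak to the nearest other widest peak on its chromosome was 3.05 Mb.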
